A study of Mus musculus with 55 samples.

Results

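The genes described here are 10 genes of protein folding in the endoplasmic reticulum (ER) and of the response to misfolded protein: Calr, Hyou1, Hspa5, Hsp90b1, Pdia3, Pdia4, Pdia6, Sdf2l1, Manf and Ddit3. They were chosen by gene symbol, with earlier results of these data known, from 19938 genes with a probe set, of which 14950 were tested. All 10 had a probe set and all 10 passed the level filter, which kept genes with a mean log2 level above 6.44. Only Pdia4 had a second probe set, and of each gene the one with the highest mean was used.

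The samples were cerebella of C57Bl/6 mouse pups at postnatal day 22, measured on Affymetrix Mouse Gene 1.0 ST arrays. The pups had been injected under the skin each day from postnatal day 4 to 21 with the vehicle dimethyl sulfoxide or with chlorpyrifos oxon (CPO) at 0.35 or 0.5 mg/kg/day. The treatment text names chlorpyrifos beside the abbreviation CPO, which is read here as the oxon. CPO is the metabolite of the insecticide chlorpyrifos that inhibits acetylcholinesterase, and paraoxonase 1 (PON1) hydrolyses it. The genotypes were Pon1+/+ (WT), Pon1-/- (KO), tgHuPON1Q192 (Q192) and tgHuPON1R192 (R192), of which Q192 and R192 carry a human PON1 transgene. The sources used here do not give the promoter of the transgenes or say whether the mouse Pon1 gene was intact beside them. WT had 6 vehicle arrays, 6 at 0.35 and 3 at 0.5, and KO had 4, 5 and 3 in the same order. Q192 and R192 had 4, 5 and 5 arrays each. The comparisons ask whether CPO changed these genes, at which dose, and whether that depended on the Pon1 genotype.

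The check of the targeted gene read opposite to what the labels of WT and KO lead one to expect. Pon1 had a mean log2 level of 5.19 ± 0.24 (SD, n = 15) in WT and 10.08 ± 0.19 (n = 12) in the arrays labelled KO, against 10.10 ± 0.14 (n = 14) in Q192 and 10.13 ± 0.11 (n = 14) in R192. WT thus read low, below the level filter, and KO read like the lines with a transgene. The sources used here do not say where its probes lie in the gene, so the check does not settle the labels. WT and KO below mean the arrays labelled so. For this reason it is in doubt which genotype each result within them belongs to. The direction of each difference between them is in doubt too. Each array's description also holds a number, whose meaning the labels do not give, and 36 such numbers cover the 55 arrays. The 3 WT arrays at 0.5 carry 2 numbers, the 6 at 0.35 carry 3 and the 6 vehicle arrays carry 4. KO 0.35 replicate 5 has the number of R192 0.35 replicates 3 and 4. The female-specific RNA Xist was above 9 on the log2 scale in 3 arrays, namely WT 0.35 replicates 1 and 2 and KO vehicle replicate 4. The markers of the cerebellum were present, with all 19 granule neuron markers above the level filter and group means of that list of 10.52 to 11.11 in WT. The labels do not say that each array is a separate animal, so p-values measure the spread between these arrays.

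Proteins that enter the secretory pathway fold in the ER with the help of chaperones, lectins and disulfide isomerases. When misfolded protein builds up, the chaperone BiP, the product of Hspa5, leaves the membrane sensors IRE1, PERK and ATF6. These act through the transcription factors XBP1, ATF4 and ATF6, which raise chaperone, degradation and, under lasting stress, death-promoting genes such as Ddit3. This network of signals is the unfolded protein response. In the cerebellum it is known from mice that lack Sil1, a cofactor of BiP, whose Purkinje cells degenerate. In bulk tissue, fewer cells of a type and less RNA per cell cannot be told apart.

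As background, ATF6 and XBP1 are known to act through the ER stress response element (ERSE), which reads CCAAT, 9 bases of any kind and CCACG. RefSeq promoter windows of GRCm38.p6, 250 bases before to 50 after the start site, were at hand for 8 of the 10 genes, all but Hyou1 and Manf. Searched on both strands with no mismatch, the ERSE letters stood in 4 of these 8 genes, Hspa5, Calr, Hsp90b1 and Pdia6. Among all 27025 genes with a window, 37 (0.137%) held them. The matching stretches are shown because the element is shared by several members. Each is written 5′ to 3′ on the gene's own strand, with the ERSE letters in capitals and flanks of 15 bases.

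Hspa5, chr2:34772010-34772058, plus strand: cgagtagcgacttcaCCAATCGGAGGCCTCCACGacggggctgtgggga
Calr, chr8:84847060-84847108, minus strand: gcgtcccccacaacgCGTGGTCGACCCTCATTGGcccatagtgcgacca
Pdia6, chr12:17266476-17266524, plus strand: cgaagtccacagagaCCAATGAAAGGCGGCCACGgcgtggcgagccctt
Hsp90b1, chr10:86705518-86705671, minus strand: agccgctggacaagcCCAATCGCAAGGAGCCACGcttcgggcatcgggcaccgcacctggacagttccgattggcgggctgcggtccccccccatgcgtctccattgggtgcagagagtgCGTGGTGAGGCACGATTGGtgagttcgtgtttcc

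Counted from the start site, with bases before it negative, Hspa5 and Pdia6 held the element in the direction of the gene, from -65 to -47 and from -98 to -80. Calr held it reversed, from -162 to -144. Hsp90b1 had 2 copies, 1 forward from -212 to -194 and 1 reversed from -107 to -89. Of the other lists, 3 of 27 genes for other ER folding factors and 2 of 25 for ER-associated degradation had an ERSE. The counts were 0 of 13 for sensors and transcription factors of the unfolded protein response and 0 of 15 for cytosolic heat shock genes. Of the targets of ATF4 and CHOP, the Ddit3 product, 0 of 20 had one. The 8 member windows held none of the 3 other motifs searched on both strands, which were ERSE-II (ATTGG, 1 base of any kind and CCACG), the UPRE core (TGACGTGG) and the ATF4 composite site (TGATGNAAT). In all promoter windows these had shares of 0.0365%, 0.676% and 0.965%. These are matches of letters and do not show binding.

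By role, the members spanned a wide range of log2 level on their arrays, and these are levels of single probe sets that are not compared between genes. Hsp90b1, the ER member of the HSP90 family, averaged 12.25 over 55 arrays and Hspa5 averaged 11.55. Calr, a lectin chaperone that binds calcium, averaged 11.03. Among disulfide isomerases Pdia3 averaged 11.55, Pdia6 10.75 and Pdia4 9.79, with 7.28 for the second Pdia4 probe set. Hyou1, an ER member of the HSP110 family that exchanges nucleotide on BiP, averaged 9.31. Manf, a secreted ER protein with neurotrophic activity, averaged 9.42, and Sdf2l1, a partner of the ER chaperone complex, averaged 8.44. Ddit3, which encodes the transcription factor CHOP, averaged 7.90.

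**Figure D1:**
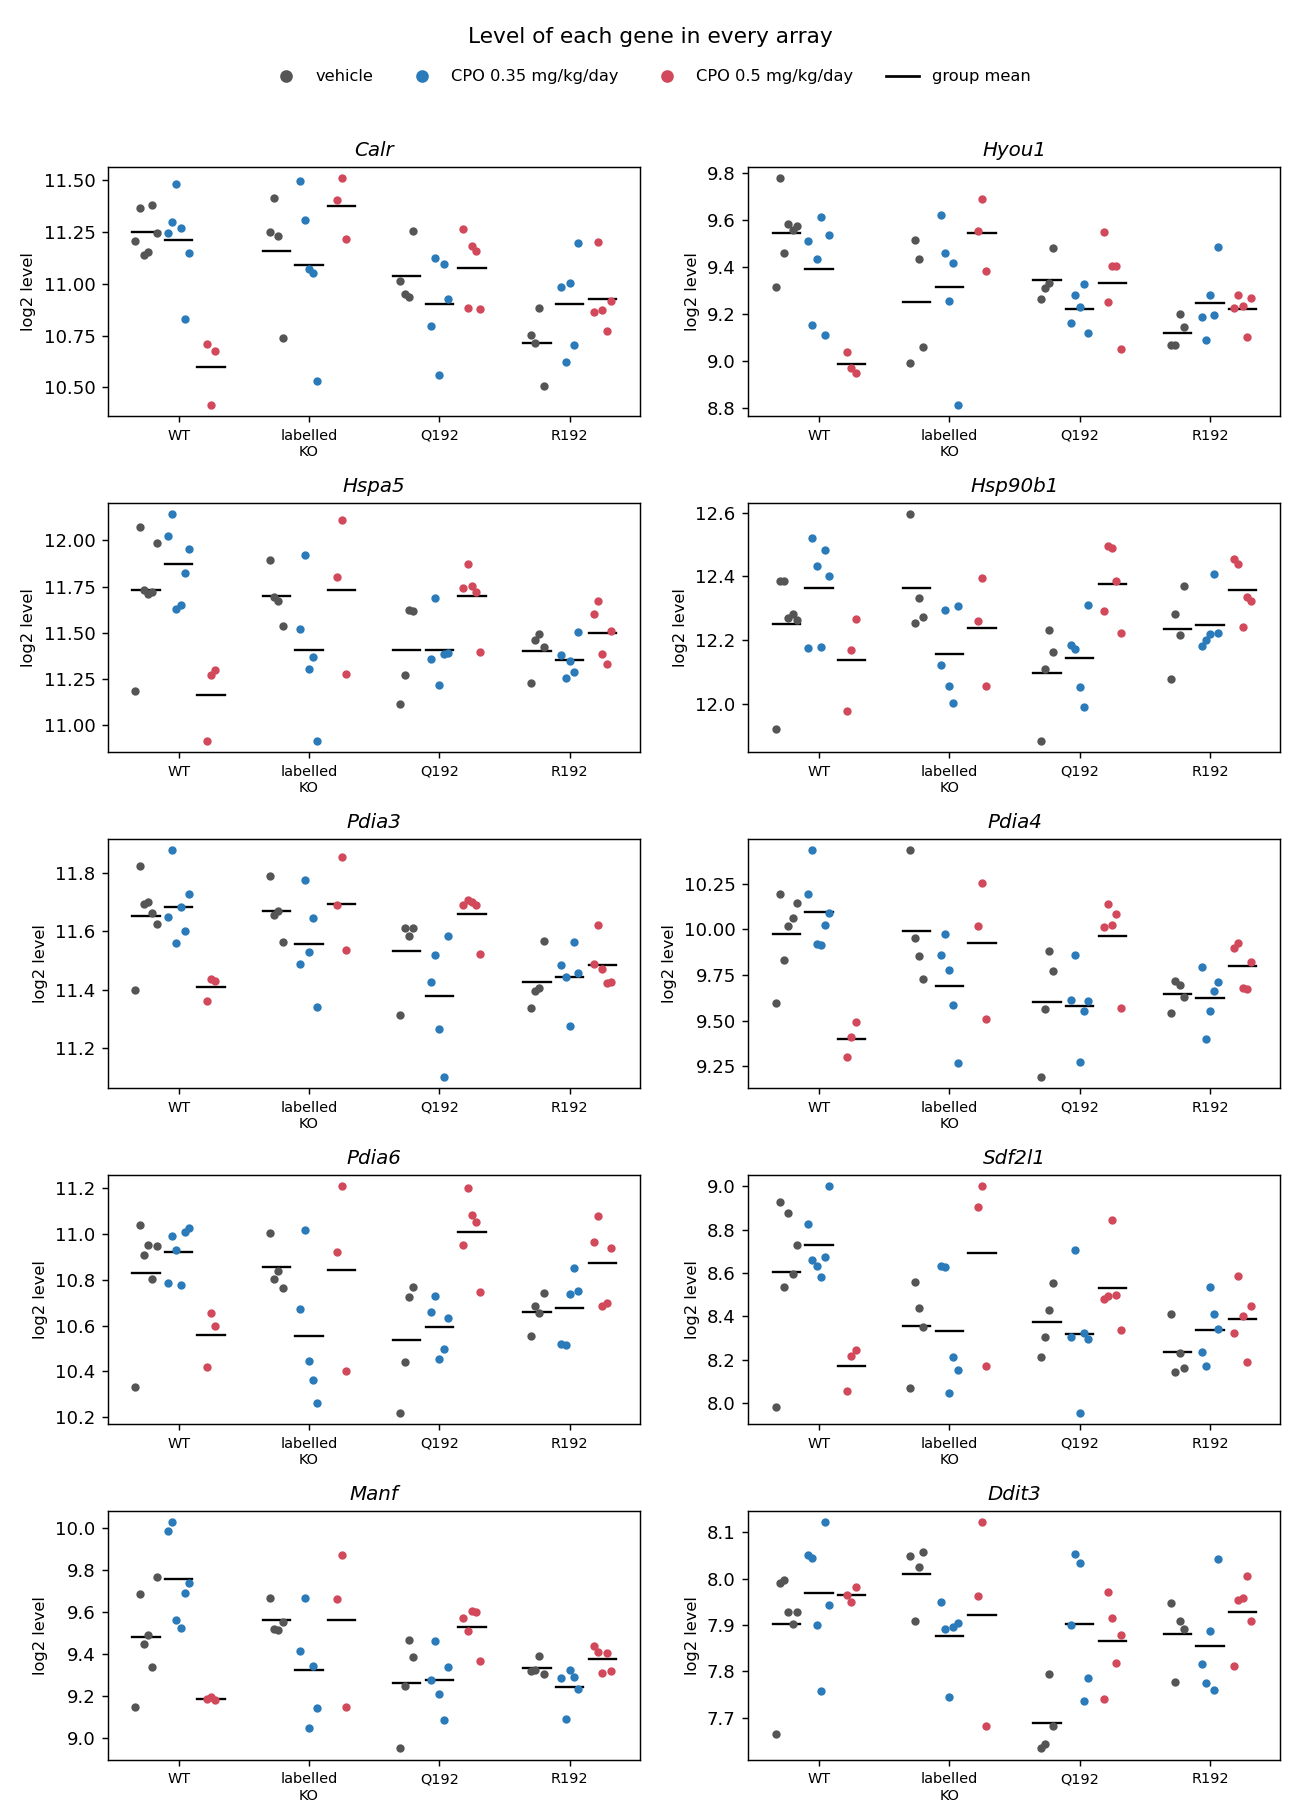
Log2 level (vertical axis, its range set for each gene) of the 10 genes in all 55 arrays, by genotype (horizontal axis) and treatment (colour); each point is 1 array and each black line a group mean. In WT, the 3 arrays at 0.5 mg/kg/day lie low for most genes but not for Ddit3, and 1 vehicle array (replicate 1, leftmost) lies apart from the other 5 for Hspa5, Pdia6 and Hsp90b1.

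At the higher dose in the arrays labelled WT, Calr and Hyou1 fell. Calr stood at 10.71, 10.42 and 10.67 in the 3 arrays at 0.5 and ran from 11.14 to 11.38 (median 11.22) in the 6 vehicle arrays, so the groups did not overlap. It fell by 0.63 log2 units (SE 0.152, limma adjusted p = 0.0337). Hyou1 stood at 9.04, 8.97 and 8.95 against 9.32 to 9.78 in vehicle (median 9.57), again with no overlap. It fell by 0.55 (SE 0.127, limma adjusted p = 0.0323). Thus 2 of 10 members were lower past the threshold of an adjusted p under 0.05, where 0.789% of all genes tested were (118 of 14950).

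The other members were lower too, apart from Ddit3, but did not pass. Hspa5 read 10.91, 11.27 and 11.30 at 0.5 against 11.18 to 12.07 in vehicle (median 11.72), which is -0.57 in log2 units (SE 0.165, limma adjusted p = 0.0638). Pdia4, an isomerase with several thioredoxin domains, read 9.30, 9.41 and 9.49 against 9.59 to 10.19, which is -0.56 (SE 0.160, limma adjusted p = 0.0611). The groups overlapped for Hspa5 through vehicle replicate 1 alone, and for Pdia4 they did not overlap. The second Pdia4 probe set averaged 7.09 ± 0.07 (SD, n = 3) at 0.5 and 7.41 ± 0.35 (n = 6) in vehicle. For Sdf2l1, Manf, Pdia3 and Pdia6 the log2 differences were -0.41, -0.29, -0.24 and -0.27, with limma adjusted p-values of 0.139, 0.175, 0.137 and 0.253. Hsp90b1 differed by -0.11 (SE 0.102) and Ddit3 by 0.06 (SE 0.0838), with limma adjusted p-values of 0.547 and 0.694. Ddit3 read 7.96, 7.95 and 7.98 at 0.5 and 7.67 to 8.0 in vehicle, so its arrays at 0.5 lay within the vehicle range. The median difference of the 10 members was -0.35, against -0.01 over all genes tested. At an unadjusted p under 0.05, 7 members were lower, where 12.8% of all genes were. In 3 members (Calr, Hyou1 and Pdia4) the groups did not overlap, with WT 0.5 below, as in 7.54% of all genes.

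These calls rest on few arrays. No member passed without any of the 3 arrays at 0.5, or without vehicle replicate 2, 5 or 6. Without vehicle replicate 3, 3 members and 2.53% of all genes passed, and without vehicle replicate 4, 4 members and 5.58% of all genes. Without vehicle replicate 1, 2 members and 0.174% of all genes passed, the members being Hspa5 (-0.68, limma adjusted p = 0.049) and Hyou1 (-0.61, limma adjusted p = 0.040). Where arrays of 1 description number were averaged, which left 2 units at 0.5 and 4 in vehicle, 0 members and 0 of all genes passed. Calr then differed by -0.61 (limma adjusted p = 0.0926) and Hyou1 by -0.58 (limma adjusted p = 0.0809), and 5 members had an unadjusted p under 0.05, where 21.3% of all genes had one in either direction. Within array date 1, where replicate 1 was the only array at 0.5, Calr differed by -0.53 and Hyou1 by -0.48. Within date 2, where 0 members passed, Calr differed by -0.72 (limma adjusted p = 0.0944) and Hyou1 by -0.61. On each date 9 of 10 members were lower, but replicate 1 shares a description number with replicate 2 of date 2. The dates are thus not independent repeats.

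Other tissue markers differed between the same arrays. Of the choroid plexus markers, 10 of 10 were lower at 0.5 and their mean level ran from 7.43 to 7.97, below the 8.03 to 8.46 of vehicle. Of the granule neuron markers, 18 of 19 were lower, with means of 9.92 to 10.84 at 0.5 and 9.56 to 11.56 in vehicle. Endothelium and pericyte markers were lower in 10 of 13 genes (means of 8.82 to 9.02 against 8.96 to 9.46) and both blood cell markers were lower (7.44 to 7.75 against 7.71 to 8.21). Ribosomal protein genes had array means of 10.96 to 11.04 at 0.5 against a vehicle mean of 10.76 ± 0.16 (SD, n = 6). The arrays of these groups overlapped in that list. No marker had a level of 0 on this scale. With the granule marker mean as a covariate, 2 members passed and Calr differed by -0.56 (limma adjusted p = 0.042), while the part of the other lists was not tested.

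**Figure D2:**
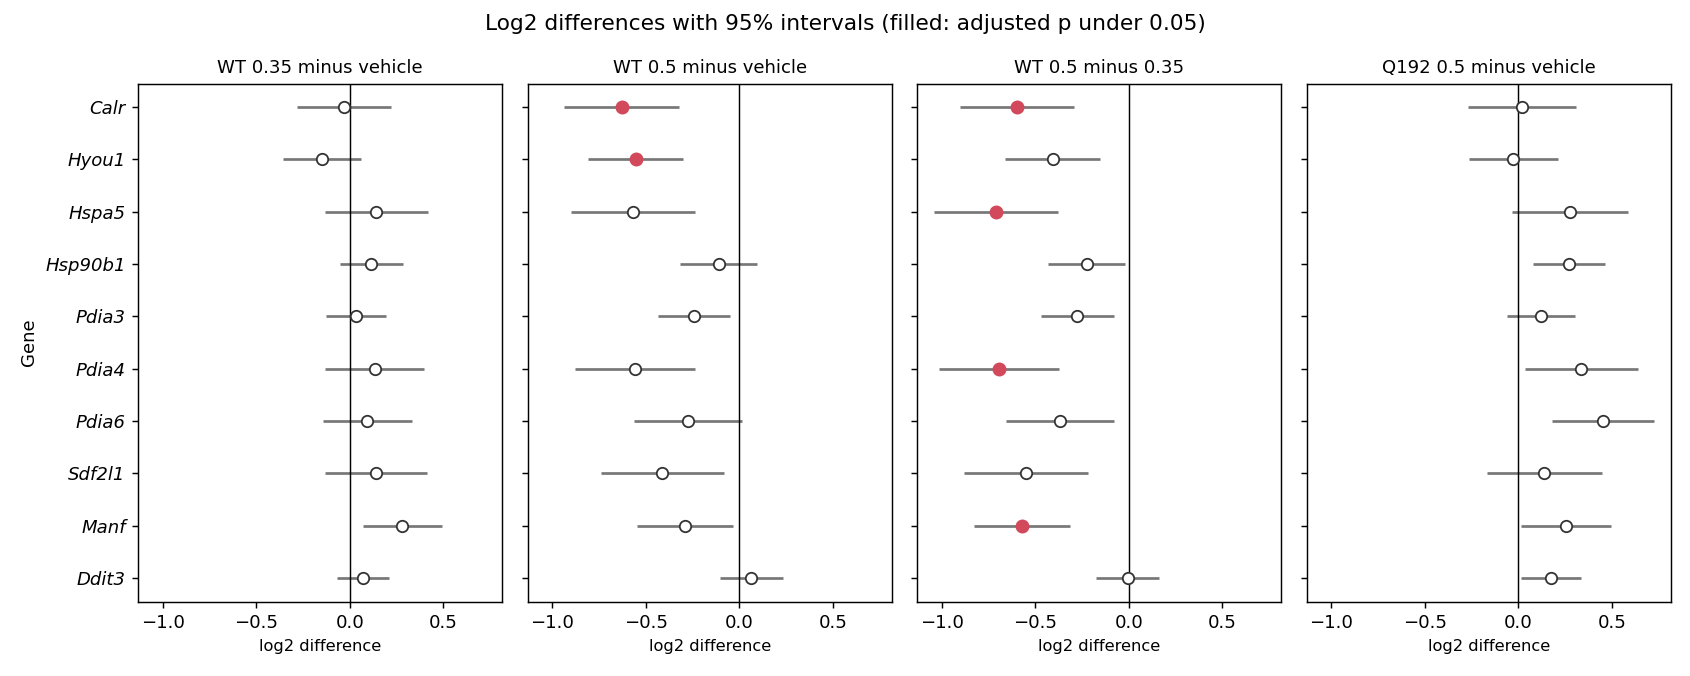
Log2 difference (horizontal axis) of each gene (vertical axis) in 4 comparisons, with 95% intervals of the limma fit as lines; filled red points had an adjusted p under 0.05. In WT the filled points are Calr and Hyou1 for 0.5 against vehicle, and Calr, Hspa5, Pdia4 and Manf for 0.5 against 0.35, whereas the comparison of 0.35 with vehicle and that of Q192 at 0.5 with vehicle have no filled point.

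Between the doses in the arrays labelled WT, Hspa5, Pdia4, Manf and Calr fell from 0.35 to 0.5. Manf read 9.18, 9.19 and 9.18 at 0.5 and 9.53 to 10.03 (median 9.72) at 0.35, and fell by 0.57 log2 units (SE 0.128, limma adjusted p = 0.0224). Pdia4 ran from 9.91 to 10.44 (median 10.06) at 0.35 and fell by 0.69 (SE 0.160, limma adjusted p = 0.0237). Hspa5 ran from 11.63 to 12.14 (median 11.89) and fell by 0.71 (SE 0.165, limma adjusted p = 0.0239). In each of these 3 genes the 2 highest arrays at 0.35 were replicates 1 and 2, which share a description number and have high Xist. Calr ran from 10.83 to 11.48 (median 11.26) and fell by 0.60 (SE 0.153, limma adjusted p = 0.0340). All 4 separated the doses without overlap, as did Hyou1, Sdf2l1, Pdia3 and Pdia6, which makes 8 members with 0.5 below 0.35, where 2.78% of all genes lay so.

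In all, 4 of 10 members were called lower between the doses, against 0.676% of all genes. The others had log2 differences of -0.55 for Sdf2l1 (limma adjusted p = 0.0638), -0.41 for Hyou1 (0.0720), -0.28 for Pdia3 (0.0991), -0.37 for Pdia6 (0.133) and -0.22 for Hsp90b1 (0.197). Ddit3 had the smallest difference, at 0.00 within an SE of 0.0838 (limma adjusted p = 0.981). The median over the members was -0.48, and 9 were lower at an unadjusted p under 0.05, as were 9.37% of all genes. This comparison and the one with vehicle share the 3 arrays at 0.5, so their values are not independent.

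The calls between the doses ended when arrays were left out. Without the high-Xist arrays 0 members passed, although 9 of 10 remained lower and the differences were -0.60 for Hspa5, -0.58 for Pdia4, -0.57 for Calr and -0.45 for Manf. Likewise 0 passed without 0.5 replicate 1 or 2, or without 0.35 replicate 1 or 2, and 3 to 6 passed without another array, where 0.843% to 9.48% of all genes did. With arrays of 1 number averaged 0 passed, with 7 members at an unadjusted p under 0.05, where 14.2% of all genes had one in either direction. Within date 1 and date 2 the medians were -0.50 and -0.46, and date 1 again held only replicate 1 at 0.5. On date 2, 0 members passed. Granule neuron markers were lower at 0.5 than at 0.35 in 19 of 19 genes, with list means of 9.92 to 10.84 against 10.65 to 11.46. With that mean as a covariate 0 members passed and their median difference was -0.42. Other lists were higher at 0.5, with 25 of 27 brainstem and midbrain markers (list means of 8.13 to 8.26 against 7.23 to 8.13), 14 of 14 oligodendrocyte markers (11.26 to 11.42 against 10.22 to 11.35) and 13 of 13 microglia markers (8.29 to 8.51 against 7.73 to 8.30). Ribosomal protein genes had array means of 10.96 to 11.04 at 0.5, which lay within the 10.64 to 11.05 (mean 10.78) at 0.35. With the brainstem mean as a covariate 0 members passed, at -0.68 for Hspa5, -0.66 for Pdia4, -0.64 for Calr and -0.51 for Manf, and the part of the other lists was not tested.

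At 0.35 in WT no member passed against vehicle, where 1 gene of all (0.00669%) did. Manf had the smallest p, with a difference of 0.28 (SE 0.105, unadjusted p = 0.0103, limma adjusted p = 0.139). Its arrays ran from 9.53 to 10.03 at 0.35 and from 9.15 to 9.77 in vehicle, so the groups overlapped. The differences of the other 9 lay between -0.15 (Hyou1) and 0.14 (Hspa5 and Sdf2l1), and 8 of 10 members were higher. The median was 0.10, and 0.01 without vehicle replicate 1. Manf was the 1 member higher at an unadjusted p under 0.05, where 6.66% of all genes were higher.

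In the arrays labelled KO no member passed at either dose against vehicle, nor did any gene (0%). At 0.35, 9 of 10 members were lower, led by Pdia6 (-0.33), Pdia4 (-0.32), Hspa5 (-0.31), Manf (-0.26) and Hsp90b1 (-0.22), each with a limma adjusted p of 0.660. These 5 were lower at an unadjusted p under 0.05, as were 2.59% of all genes. Replicate 5, whose number is shared with R192 arrays, was low, with 10.92 for Hspa5, 10.53 for Calr and 8.82 for Hyou1. Without it 1 member had an unadjusted p under 0.05, where 19.7% of all genes had one in either direction. At 0.5, Hyou1 differed by 0.30 (unadjusted p = 0.0321, limma adjusted p = 0.387) and Sdf2l1 by 0.32, and Hyou1 was the 1 member higher at an unadjusted p under 0.05, as were 7.17% of all genes. Here Sdf2l1 read 8.90, 9.0 and 8.17 at 0.5 and 8.07 to 8.56 in vehicle, so 1 of its arrays at 0.5 lay among those of vehicle. Between the doses all 10 were higher at 0.5 with 0 called, at a median of 0.24. On array date 2 alone, where only replicate 3 was at 0.5, the median was -0.14.

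In Q192 no member passed, and neither did any other gene (0%) at either dose against vehicle. Pdia6, a disulfide isomerase that also acts on the sensor IRE1, ran from 10.75 to 11.20 at 0.5 and from 10.22 to 10.77 in vehicle, and only 1 array of each group lay in the overlap. Its difference of 0.45 (SE 0.135, limma adjusted p = 0.332) was the largest of the members. Pdia4 (0.34), Hsp90b1 (0.27), Manf (0.26) and Ddit3 (0.17) were also higher at an unadjusted p under 0.05, which makes 5 members where 5.44% of all genes were higher. The median over the members was 0.22, with 0.39 on array date 1 and 0.00 on date 2. With arrays of 1 number averaged, only 1 member had an unadjusted p under 0.05, where 9.28% of all genes had one in either direction. Granule neuron markers were lower in 19 of 19 genes here, with list means of 10.43 to 10.81 at 0.5 and 10.84 to 11.20 in vehicle. With their mean as a covariate over all arrays, all 10 members were higher and 0 passed, at a median of 0.21. Then 5 members had an unadjusted p under 0.05, where 5.73% of all genes had one in either direction. The part of these markers was not tested in this group alone. At 0.35, Ddit3 differed from vehicle by 0.21 (unadjusted p = 0.00926, limma adjusted p = 0.999), with arrays of 7.74 to 8.05 against 7.63 to 7.79, and 1.42% of all genes were higher at that unadjusted threshold. From 0.35 to 0.5 in Q192, 7 genes (0.0468%) and 0 members passed, and Pdia6 was the only member whose groups did not overlap, as in 1.1% of all genes, with a difference of 0.42.

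In R192 no member and no gene (0%) passed against vehicle. At 0.5 all 10 members were higher, from 0.04 for Manf to 0.22 for Pdia6, with a median of 0.12. None of the 10 had an unadjusted p under 0.05 at either dose, while 3.59% of all genes at 0.35 and 1.02% at 0.5 did. On the mean of the 4 genotypes the members' medians were -0.02 at 0.35 and -0.01 at 0.5, again with 0 members called and 0 at an unadjusted p under 0.05. The shares of all genes at an unadjusted p under 0.05 were 1.83% and 4.84%.

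Whether the effect of 0.5 depended on genotype was tested as a difference of differences, in which all 3 tests share the WT arrays. Hyou1, Calr and Sdf2l1 differed between the arrays labelled KO and WT. Hyou1 stood at 9.55, 9.69 and 9.39 at 0.5 in the arrays labelled KO, with 8.99, 9.52, 9.43 and 9.06 in their vehicle, whereas in WT it was lower at 0.5. The effect was higher by 0.85 log2 units (SE 0.186, limma adjusted p = 0.0370). Calr stood at 11.40, 11.51 and 11.22 at 0.5 and at 11.25, 11.41, 11.23 and 10.74 in vehicle, and its effect was higher by 0.84 (SE 0.223, limma adjusted p = 0.0370). For Sdf2l1 it was higher by 0.73 (SE 0.241, limma adjusted p = 0.0472). Thus 3 of 10 members passed in this direction, where 5.63% of all genes did. With arrays of 1 number averaged, Calr and Hyou1 passed, which is 2 of 10 members where 19.4% of all genes passed in either direction. The count was 0, and that of all genes was 0 too, without KO 0.5 replicate 1 or 3, KO vehicle replicate 1 or 4, WT 0.5 replicate 2 or 3, or WT vehicle replicate 1 or 5. Within date 1 and date 2, the median differences were 0.51 and 0.17. At 0.5, date 1 held only replicate 1 of WT, and date 2 only replicate 3 of the arrays labelled KO. With the granule marker mean as a covariate 0 were called, at 0.82 for Hyou1, 0.73 for Calr and 0.77 for Sdf2l1.

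Against Q192 and R192 the same contrast called no member. For Q192 all 10 differences were above 0, led by Pdia4 (0.90), Hspa5 (0.84) and Pdia6 (0.73), and 9 were higher at an unadjusted p under 0.05, where 1.6% of all genes were. Their limma adjusted p was 1.00 and 0% of genes passed. The median was 0.55, with 0.70 on date 1, where WT at 0.5 had only replicate 1, and 0.43 on date 2. With numbers averaged 7 members had an unadjusted p under 0.05, where 1.37% of all genes had one in either direction. For R192 the median was 0.53, and 7 members were higher at an unadjusted p under 0.05, as were 8.84% of all genes, while 3 genes (0.0201%) passed. At 0.35, the tests against WT called 0 members, with Manf nearest at -0.54 for the arrays labelled KO (limma adjusted p = 0.0756), where 0.00669% of genes passed.

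Between genotypes, averaged over the treatments, Calr and Pdia3 were lower in R192 than in the arrays labelled KO. Calr, which works with Pdia3 on glycoproteins in the ER, averaged 10.71 ± 0.16 (SD, n = 4) in vehicle, 10.90 ± 0.24 (n = 5) at 0.35 and 10.93 ± 0.16 (n = 5) at 0.5 in R192. In the arrays labelled KO it averaged 11.16 ± 0.29 (n = 4), 11.09 ± 0.36 (n = 5) and 11.38 ± 0.15 (n = 3) in the same order. The difference was -0.34 log2 units (SE 0.0840, limma adjusted p = 0.0124). Pdia3 averaged 11.43, 11.45 and 11.49 in R192 against 11.67, 11.56 and 11.70, a difference of -0.18 (SE 0.0531, limma adjusted p = 0.0312). These 2 of 10 stand beside 2.96% of all genes called lower in that comparison. With numbers averaged 0 members passed, with limma adjusted p-values of 0.0837 for Calr and 0.0567 for Pdia3. Granule neuron markers were lower in 19 of 19 genes, and with their mean as a covariate 0 members passed, at -0.28 for Calr (limma adjusted p = 0.0659) and -0.19 for Pdia3 (limma adjusted p = 0.0614). On date 1 and date 2 alone 0 members passed, with Calr at -0.43 and -0.28. Only 1 member passed without KO 0.35 replicate 4, KO 0.5 replicate 2, R192 0.5 replicate 5 or R192 vehicle replicate 1 or 2, where 3.04% to 5.85% of all genes did. Without KO 0.35 replicate 5, 3 members and 15.5% of all genes passed. The other 5 pairs of genotypes called no member in limma. The shares of all genes called were 0.375% between the arrays labelled KO and WT, 0.455% between Q192 and WT, 0.87% between R192 and WT, 0.401% between Q192 and the arrays labelled KO, and 0.0736% between R192 and Q192. At an unadjusted p under 0.05, the first pair had 1 member higher (1.59% of all genes), the next 3 pairs had 1, 3 and 3 members lower (2.42%, 8.14% and 3.63%), and the last pair had 0 (9.97% in either direction).

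Genes around the members were read from lists of known function. In WT at 0.5 against vehicle, 53.6% of all genes tested were lower and 0.789% were called lower. There 0 of 13 UPR sensors and transcription factors passed and 11 were lower. The kinase gene Eif2ak3, which encodes PERK, differed by -0.29 (limma adjusted p = 0.104), and Creb3l1 by -0.24 (limma adjusted p = 0.109). Of 21 targets of ATF4 and CHOP 0 passed and 16 were lower, with Wars at -0.53 (limma adjusted p = 0.0727) and Vldlr at 0.17 (limma adjusted p = 0.135). Among 29 other ER folding factors 0 passed and 15 were lower, with the glucosidase II subunit genes Prkcsh at -0.57 (limma adjusted p = 0.0615) and Ganab at -0.42 (limma adjusted p = 0.0611). In ER-associated degradation and the translocon, 2 of 28 fell, Sel1l by 0.43 (limma adjusted p = 0.0323) and Syvn1 by 0.45 (limma adjusted p = 0.0470). These encode the adaptor and the ubiquitin ligase of 1 membrane complex, and 19 of the 28 were lower. Of 17 cytosolic heat shock genes Hsph1, an HSP110 family member, fell by 0.47 (limma adjusted p = 0.0459).

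Between the doses in WT, 0.676% of all genes were called lower. Xbp1, the transcription factor spliced by IRE1, fell there by 0.58 (limma adjusted p = 0.0237). The BiP cofactor Dnajb11 fell by 0.44 (limma adjusted p = 0.0237) and Creld2 by 0.49 (limma adjusted p = 0.0316), while the signal peptidase subunit gene Spcs1 rose by 0.27 (limma adjusted p = 0.0393). In the effect of 0.5 between the arrays labelled KO and WT, Atf6b (0.68), Eif2ak3 (0.46) and Creb3l1 (0.44) were higher among the sensors, as were Wars (0.87) and Hspa1a (0.52). Among the folding factors Prkcsh (0.85), Ganab (0.60) and Dnajb11 (0.56) were higher, and Dnajb9 (-0.55) and Dnajc10 (-0.40) lower. In ER-associated degradation and the translocon 8 were higher and 2 lower, with Syvn1 (0.70), Herpud1 (0.68) and Rpn2 (0.62) against Spcs2 (-0.40) and Spcs1 (-0.33). All of these had a limma adjusted p under 0.05. Of all genes 5.63% were called higher in this contrast, and 0 were called without certain single arrays, as given above. In R192 against the arrays labelled KO, 2.96% of all genes were called lower. Ganab (-0.24), Dnajb11 (-0.18), Uggt1 (-0.14), Syvn1 (-0.25), Sel1l (-0.24) and Ddost (-0.20) were lower there, while Cnpy2 (0.17), Sdf2 (0.17), Spcs1 (0.16) and Hspa4l (0.53) were higher. Hspa4l was also higher in Q192 than in WT (0.55) or the arrays labelled KO (0.52), and higher in R192 than in WT (0.56). The shares of all genes in this paragraph cover 1 direction each. For genes called in the other direction the share is not given here, so these are listed as values only.

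By group mean the order of the 12 groups was shallow. WT at 0.5 had the lowest mean in 6 members (Calr, Hyou1, Hspa5, Pdia4, Sdf2l1 and Manf) and WT at 0.35 the highest in 4 (Hspa5, Pdia4, Sdf2l1 and Manf). For Hspa5 the order began with WT 0.35 at 11.87, WT vehicle at 11.73, KO 0.5 at 11.73, KO vehicle at 11.70 and Q192 0.5 at 11.70, and ended with WT 0.5 at 11.16. The means spanned 0.28 (Hsp90b1) to 0.78 (Calr) on the log2 scale. Of the 11 gaps between neighbours in each order, at most 2 exceeded the larger SD of the pair of groups, and for 7 members none did.

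Within groups the members varied together from array to array, after removal of group means and date. Over the 45 pairs of members, Pearson's r had a median of 0.53 across 55 arrays that share this removal and the array normalisation. Over pairs of 300 genes evenly spaced by level the median was 0.01. That is a signed median, in which values of opposite sign cancel, so it does not measure how much genes vary together. Among member pairs, r was highest for Hspa5 and Pdia4 (0.90) and lowest for Hyou1 and Hsp90b1 (-0.12). Hspa5 followed the mean of the other 9 most closely (r = 0.93), followed by Pdia6 (0.88), Pdia4 (0.85) and Manf (0.82). Hyou1 (0.49), Calr (0.48) and Ddit3 (0.45) followed it least, although Calr and Hyou1 had 0.71 with each other. Principal axes of these residuals over all genes tested held 29.7% (first) and 21.2% (second) of the variance. The median absolute r of all genes with the first axis was 0.41. Hyou1 had -0.62 with that axis, Calr -0.43 and Hsp90b1 0.57, and the others lay from -0.22 to 0.33. With the second axis granule neuron markers had 0.88, Calr 0.56 and the other members -0.34 to 0.28. The part of these axes was not tested. The 5 other genes most like the mean of the members were Xbp1 (0.86), Dnajb11 (0.79), Creld2 (0.79), Ahsa1, a cochaperone of HSP90 (0.72), and Mapk10, which encodes a JNK kinase (0.69). The mean of the other ER folding factors had an r of 0.60 with the member mean, cytosolic heat shock genes 0.55, ER-associated degradation and translocon genes 0.51, UPR sensors 0.45 and ATF4 and CHOP targets 0.18, while granule neuron markers had 0.04.

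**Figure D3:**
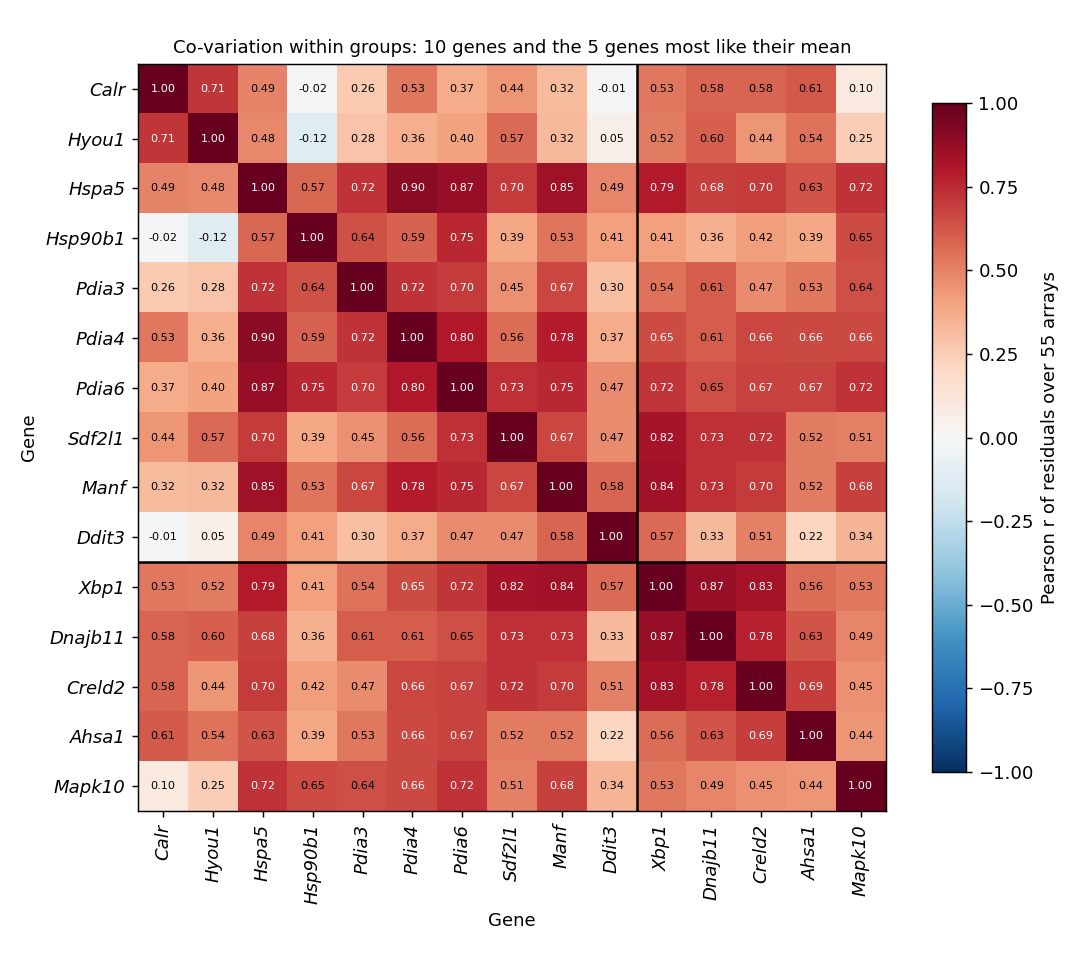
Pearson's r (colour and number) over 55 arrays between the residuals of the 10 genes and of the 5 genes most like their mean, which follow the black lines. Hspa5, Pdia4, Pdia6 and Manf form a block of high values that extends to Xbp1, Dnajb11, Creld2 and Mapk10, genes picked for such likeness. With that block Mapk10 has 0.72 (Hspa5), 0.66 (Pdia4), 0.72 (Pdia6) and 0.68 (Manf). Hsp90b1 has -0.02 with Calr and -0.12 with Hyou1.

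Arrays that carry the same description number read alike in these genes. The correlation within numbers had a median of 0.57 over the members, with 0.83 for Pdia4, 0.76 for Pdia6, 0.74 for Hspa5 and 0.71 for Sdf2l1, against 0.14 over all genes. Calr had 0.35, Hyou1 0.40, Hsp90b1 0.18 and Pdia3 -0.16. The fit used 0.131 for every gene, so the SEs of most members are larger with their own value. With its own correlation Hspa5 differed between the WT doses by -0.70 (SE 0.217, unadjusted p = 0.00220 in the limma fit) and Pdia4 by -0.69 (SE 0.225, unadjusted p = 0.00355 in the limma fit). Against vehicle at 0.5, Calr had an unadjusted p of 0.000541 and Hyou1 of 0.000325 in that limma fit, and Hspa5 one of 0.0113.

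**Figure D4:**
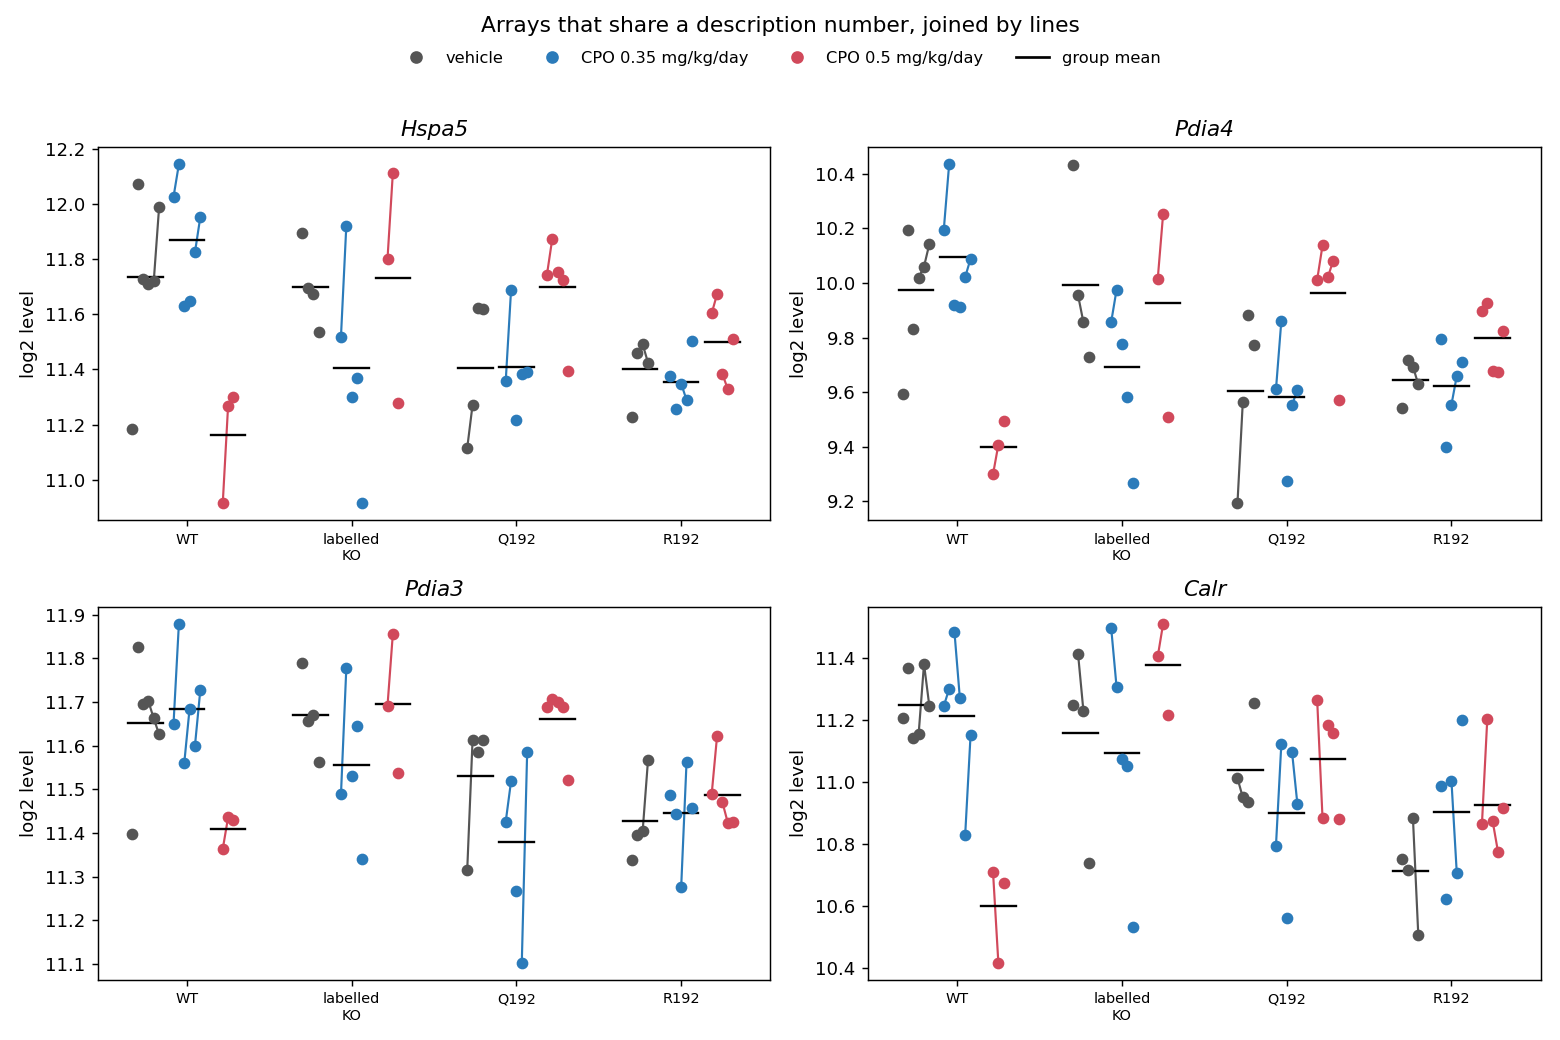
Log2 level (vertical axis) of Hspa5, Pdia4, Pdia3 and Calr in all 55 arrays by genotype (horizontal axis) and treatment (colour), with lines that join arrays of 1 group and 1 description number and black lines for group means. Joined arrays lie close together for Hspa5 and Pdia4, whose correlation within numbers was 0.74 and 0.83, and less so for Pdia3, at -0.16.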

How the data were processed

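The deposited values of 55 arrays, 1 a sample, were taken as log2 levels. Per the submitters' processing notes, the authors made them with Affymetrix Expression Console 1.1 and RMA, which corrects background, brings arrays to 1 distribution and summarises probes. The sources used here name no log base, and the values ran from 1.15 to 14.80, as log2 values do. No further normalisation was applied. Genes were named from GEO's platform annotation through probe sets with 1 symbol (21789 of 35557).

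Of 19938 genes, those whose mean exceeded the 25th percentile (6.44) were tested, less 3 sex-linked genes. limma 3.58.1 in R 4.3.3 fitted all 55 arrays at once, with a mean for each group, array date (2 dates) as a covariate and description numbers as a random block (correlation 0.131). P-values were two-sided and adjusted for each of 26 comparisons over 14950 genes by the Benjamini-Hochberg procedure, with 42 residual degrees of freedom. On arrays, their number limits the precision. Of 104 array pairs within groups 0 were identical, and the closest pair differed by a root mean square of 0.240. Figures were drawn with matplotlib 3.10.9.

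The members, lists and comparisons were chosen with earlier results of these data known. Named were all members, the genes of the other lists that passed (of more than 6, the 3 largest rises and falls) or else the 2 with the smallest p in WT at 0.5 against vehicle, and the 5 genes most like the members. Replicate numbers of the labels paired nothing: residuals of same-numbered arrays had a median r of -0.01 over 265 pairs. Alternatives changed 1 choice at a time, and those on averaged numbers, each gene's own correlation, the first principal axis and joint removal of arrays were chosen after seeing the data. The fit was also run on simulated data with independent noise in each array. That run held no correlation within numbers, no date effect and no variation shared between genes. It therefore does not test the p-values under these.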

Additional observations from a re-analysis of the deposited data

Results flagged for a closer look

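A search of 100 sets of 1 gene in 1 group found 8 with an array far from the rest, where chance gives about 1 in 20. WT vehicle replicate 1 was the lowest for Ddit3 (7.67), Hsp90b1 (11.92) and Pdia6 (10.33). Q192 0.5 replicate 5 was the lowest for Pdia3 (11.52) and Pdia4 (9.57). Q192 vehicle replicate 1 was the lowest for Pdia3 (11.31), and KO 0.35 replicate 3 was the lowest for Ddit3 (7.75). R192 0.35 replicate 4 was the highest for Hsp90b1 (12.41).

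In the test of the difference itself, the effect of 0.5 in the arrays labelled KO exceeded that in WT by 0.85 for Hyou1, 0.84 for Calr and 0.73 for Sdf2l1 on the log2 scale. Pon1 read high in the arrays labelled KO and low in those labelled WT, opposite to what the labels lead one to expect. The position of its probes is not known here, and these differences carry that doubt.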

How the results depend on the processing

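No difference that passed changed its sign under any alternative. Over the calls of members, each taken with each left-out array, 89 were kept and 65 lost, and with each other setting 142 were kept and 78 lost. Percentages are the shares of all genes called in either direction under the same setting. For 0.5 against vehicle in WT (2 members passing), 4 passed without the number correlation (4.82%), with the filter at the median (3.79%), with brainstem markers as a covariate (6.49%), without the KO array of a shared number (3.27%), or without it and the high-Xist arrays (5.52%), and 8 passed with array quality weights (16.8%). There 0 passed with only the genotypes compared, on date 1, on date 2, with the first principal axis in the model or with numbers averaged (0% to 0.0535%). For 0.5 against 0.35 in WT (4), 7 passed with weights (6.18%) and 7 with the first principal axis (5.21%). There 0 passed with only the genotypes compared, without high-Xist arrays (alone, with the KO array, or as the WT 0.35 arrays of low brainstem markers), with brainstem or granule markers as a covariate, on either date, or with numbers averaged (0% to 0.0669%). For R192 against KO (2), 1 passed with median centring (6.1%), 5 with weights (36.1%), 5 without the high-Xist and KO arrays (18.8%), and 0 with granule markers (1.4%), on date 1 (0.0669%), on date 2 (0.809%) or with numbers averaged (2.56%). For the 0.5 effect between KO and WT (3), 6 passed with weights (9.47%), and 0 with only the genotypes compared, without high-Xist arrays, with granule markers, on either date or with the first principal axis (0% each). Elsewhere weights gave 2 for Q192 0.5 against vehicle (4.21%), 2 for R192 against WT (9.25%), 1 for Q192 against KO (10%, and 1 also without the high-Xist and KO arrays, 1.02%), 2 for the 0.5 effect between Q192 and WT (0.0201%) and 7 between R192 and WT (6.94%). For the 0.35 effect between KO and WT, 1 passed without the number correlation (3.38%) and 2 without the KO array (16.6%). The causes were not tested.

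Leaving out 1 array at a time gave 0 to 4 for 0.5 against vehicle, 0 to 6 for 0.5 against 0.35, 1 to 3 for R192 against KO, 0 to 3 and 0 to 2 for the 0.5 and 0.35 effects between KO and WT, and 0 to 0 elsewhere. With the replicate block, 4 members passed for 0.5 against vehicle (0.482%), 5 for 0.5 against 0.35 (7.2%) and 4 for the 0.5 effect between KO and WT (12.5%).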
